A study of Mus musculus with 12 samples.

Results

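The mRNAs of 7 genes that write or erase DNA methylation were followed in murine Th0, Th17, and iTreg cells: the DNA methyltransferase genes Dnmt1, Dnmt3a, and Dnmt3b, the recruiter gene Uhrf1, and the TET genes Tet1, Tet2, and Tet3. They are defined by symbol, and all 7 were found among the 11077 genes of the Th17 table and the 11056 genes of the iTreg table. Naive CD4+CD62L+ T cells from the spleens of C57BL/6 mice aged 8 to 10 weeks were activated with plate-bound anti-CD3 and anti-CD28, at 1 μg/ml each, in all 3 groups and were collected after 72 h. Th0 cultures received nothing more. Th17 cultures received IL6 (30 ng/ml), TGFβ1 (5 ng/ml), and the neutralizing antibodies anti-IL4 and anti-IFNγ (10 μg/ml each), and iTreg cultures received TGFβ1 (10 ng/ml) and IL2 (10 ng/ml). For the TGFβ1 of iTreg cultures, the methods of the study state a higher concentration than the sample labels. The neutralizing antibodies were added to Th17 cultures alone, so their part in a difference between Th17 and Th0 cells cannot be told apart from that of the cytokines. Each group had 4 libraries from independent cultures, which makes 12 libraries, and iTreg cells are called Treg in the labels.

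DNA methylation in mammals is placed on cytosines that precede guanines. DNMT1 copies the methylated state onto the new strand behind the replication fork, where UHRF1 recognizes half-methylated sites and brings it in, while DNMT3A and DNMT3B methylate sites with no methylated partner strand. TET enzymes oxidize methylcytosine and so start its removal, and in T cells demethylation of the conserved enhancer regions of Foxp3, the transcription factor gene of regulatory T cells, is known to accompany stable Foxp3 expression. All values here are mRNA levels. Neither DNA methylation nor protein was measured in these libraries.

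Levels are given in FPKM, in which fragments are counted relative to gene length and to the depth of the library, so that genes of different length can be set side by side. The same 4 Th0 libraries appear in both tables, and the comparisons of Th17 and of iTreg with Th0 therefore share their controls. The tables were scaled separately, and for the members the Th0 values of the iTreg table were 98.8% to 99.1% of those in the Th17 table. Libraries are named by their column headings, such as M22_5, in which the ending gives the group (1 for Th0, 5 for Th17, 4 for iTreg). In each group, 1 heading begins with M22, 1 with M29, 1 with M42, and 1 with M43, and no source used here explains these beginnings. Libraries with the same beginning deviated together from their group means, and a fit with the beginning as a block is given where it changes a call. Recovered from the FPKM values as whole reads, the depth on the listed genes ran from 7271702 (M22_1) to 10801531 reads (M22_4), and in every library each member apart from Tet1 had between 114 and 5848 reads. A difference is called where the adjusted p of limma, with Benjamini-Hochberg adjustment over all tested genes, was below 0.05.

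The labels were checked against lineage genes. Il17f, which encodes the cytokine IL17F, was at most 0.184 FPKM in Th0 libraries and 281 to 788 in Th17 libraries, and it reached 26.9 to 99.2 in iTreg libraries. Il17a was at most 0.114 FPKM in Th0 and 7.27 to 65.2 in Th17 libraries. Foxp3 ranged from 62.0 to 91.7 FPKM in iTreg libraries, above its range of 2.01 to 7.15 in the Th0 libraries of the same table. A single Th17 library, M43_5, had 42.5 FPKM of Foxp3, where the other Th17 libraries had 0.499 to 4.50, and member values without M43_5 are given below where they change a call. Of 6 CD4 T cell markers, 5 were listed, and their summed FPKM was 738 to 1673 in Th0, 523 to 1048 in Th17, and 587 to 903 in iTreg libraries. Of these 5, Cd4 alone was called for Th17 cells, lower at 68.1 against 208 FPKM in Th0 cells (means, limma adjusted p = 0.038). Among all tested genes, 8.69% were called lower for Th17 cells. None of the 5 was called for iTreg cells. Of the markers of CD8 T, B, myeloid, dendritic, NK, and erythroid cells, only Cd8b1 (at most 6.60 FPKM), Cd79a (at most 3.84), Zbtb46 (at most 1.44), and, in the Th17 table, Itgam (at most 0.628) were listed.

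Uhrf1 and Dnmt1 were the most abundant members in all 3 groups. In Th0 cells the mean level fell from Uhrf1 (102 FPKM) and Dnmt1 (90.2) to Dnmt3a (24.0), Tet3 (18.1), Tet2 (7.96), Dnmt3b (4.01), and Tet1 (0.332). The ranges of Uhrf1 and Dnmt1 overlapped, as did those of Dnmt3a and Tet3, although Uhrf1 was above Dnmt1 in 4 of 4 Th0 libraries and Dnmt3a above Tet3 in 3 of 4. All other neighbours in this order were apart in every Th0 library. In Th17 cells Tet3 (13.7 FPKM) stood above Dnmt3a (10.7) in 4 of 4 libraries, but the ranges overlapped. In iTreg cells Dnmt3a (14.3), Tet3 (13.5), and Tet2 (10.8) lay close together, and neighbouring ranges overlapped. Tet1 was last in every library.

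**Figure D1:**
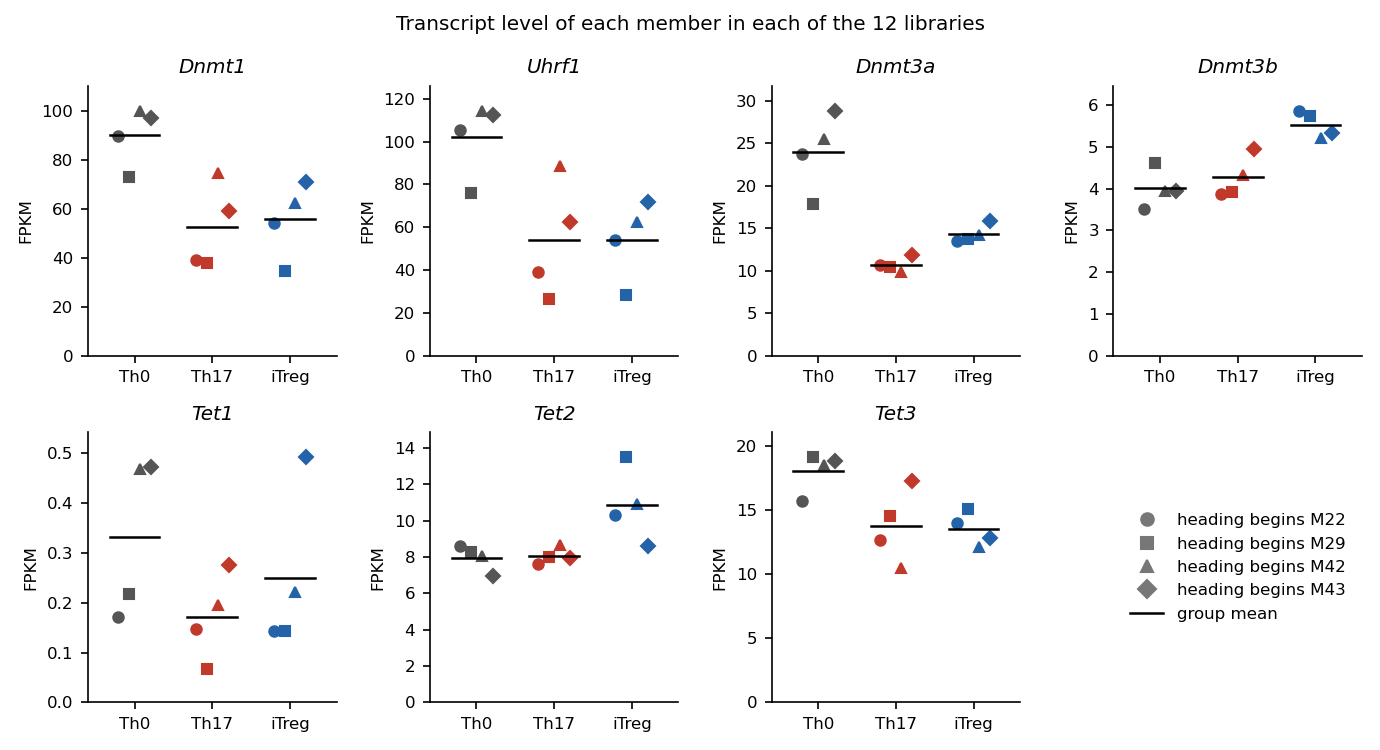
FPKM of each member (vertical axes, each from 0) in the 4 libraries of Th0, Th17, and iTreg cells, with Th0 values from the Th17 table; marker shapes give the beginning of the column heading and lines the group means. Dnmt3a is lower in every Th17 and iTreg library than in any Th0 library, and Dnmt3b and Tet2 are higher in every iTreg library than in any Th0 library.

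Of the 6 members that passed the filter on low values (more than 1 FPKM in at least 4 of 8 libraries), 2 were called between Th17 and Th0 cells, Dnmt1 and Dnmt3a, both lower in Th17 cells. Among all 10269 genes tested for Th17 cells, 19.3% were called, 10.6% higher and 8.69% lower. Between iTreg and Th0 cells 4 of 6 were called. Uhrf1, Dnmt3a, and Tet3 were lower and Dnmt3b was higher in iTreg cells, where 16.6% of 10208 genes were called, 8.36% higher and 8.21% lower. The median difference of the 6 members on the log2(FPKM + 1) scale was -0.60 for Th17 and -0.53 for iTreg cells, beside medians of -0.00071 and 0.011 over all tested genes. Tet1 was the member left out by the filter in both tables. With the beginning of the heading as a block, a fit chosen after seeing the data, limma called 4 members for Th17 (37.8% of all tested genes were then called) and 6 for iTreg cells (40.9%). With 4 libraries against 4, the exact two-sided permutation test cannot give a p below 0.029.

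**Figure D2:**
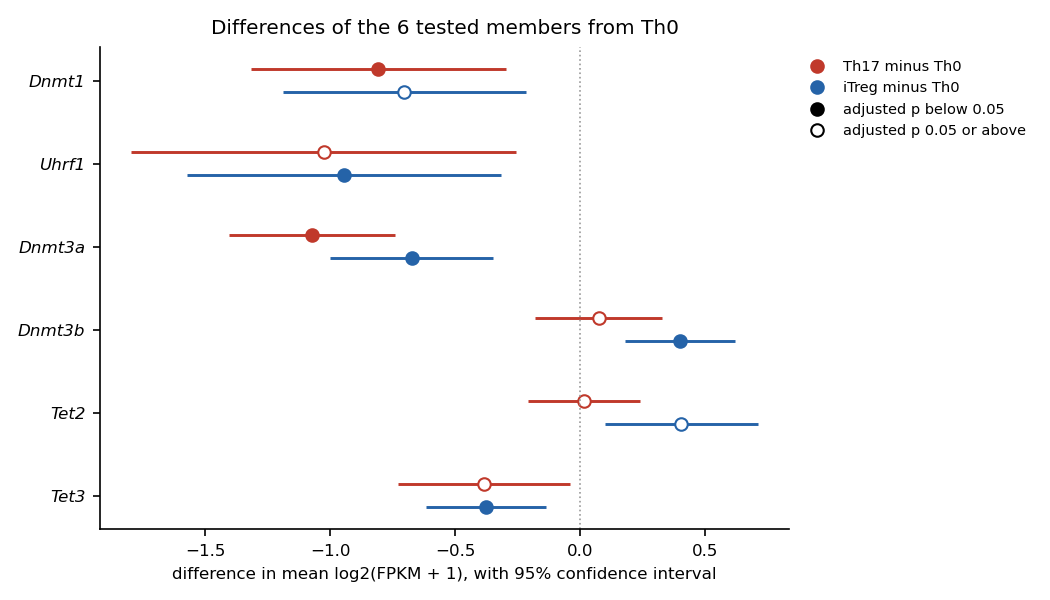
Difference of each tested member from Th0 in mean log2(FPKM + 1) (horizontal axis), with the 95% confidence interval from limma, for Th17 (red) and iTreg cells (blue); filled points have an adjusted p below 0.05. Dnmt1, Uhrf1, Dnmt3a, and Tet3 lie below 0 in both comparisons, with 5 of these 8 points filled, and Dnmt3b and Tet2 lie near 0 for Th17 and at 0.40 for iTreg cells.

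Dnmt1 was measured at 89.8, 73.1, 100.3, and 97.4 FPKM in the Th0 libraries M22_1, M29_1, M42_1, and M43_1, and at 39.4, 37.8, 74.7, and 59.1 FPKM in the Th17 libraries M22_5, M29_5, M42_5, and M43_5. M42_5 stood above the lowest Th0 library, so the groups overlapped, while each Th17 library was below the Th0 library whose heading begins alike, at 43.9% to 74.5% of it. The means were 90.2 ± 12.2 and 52.8 ± 17.6 FPKM (SD, n = 4), and Dnmt1 was lower in Th17 cells by a log2 difference of -0.81 (SE 0.22, limma adjusted p = 0.036). The exact permutation test gave p = 0.057. The call was kept in 2 of 8 fits that left out a library and lost without M22_1, M22_5, M29_5, M42_1, M43_1, or M43_5, with adjusted p between 0.0093 and 0.10 in the 8 fits. Without M43_5, the library with high Foxp3, the difference was -0.88 (limma adjusted p = 0.053).

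In iTreg libraries Dnmt1 was at 54.5 (M22_4), 34.8 (M29_4), 62.5 (M42_4), and 71.3 FPKM (M43_4), against 72.5 to 99.1 FPKM in Th0 cells of the same table. The highest iTreg library was below the lowest Th0 library. Of the genes tested for iTreg cells, 22.8% had groups that did not overlap, 11.0% with iTreg lower, and the iTreg mean was 62.6% of the Th0 mean. The difference of -0.70 (SE 0.21) did not pass the threshold (limma adjusted p = 0.057), with an exact permutation p of 0.029. Without M43_4 it was -0.83 (limma adjusted p = 0.044). With the block on the heading it was called (SE 0.10, limma adjusted p = 0.0025).

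Uhrf1, whose product brings DNMT1 to replicating DNA, varied more between libraries than Dnmt1. The Th0 libraries had 105.6, 75.9, 114.5, and 112.3 FPKM, and the Th17 libraries 38.9, 26.4, 88.6, and 62.5 FPKM, in the order M22, M29, M42, and M43. M42_5 was again above the lowest Th0 library, and the 3 other Th17 libraries were below all Th0 libraries. The means were 102 ± 17.9 and 54.1 ± 27.4 FPKM (SD, n = 4), and the difference of -1.03 (SE 0.34, 95% confidence interval -1.80 to -0.26) did not pass the threshold (limma adjusted p = 0.067). Without M42_5 it was -1.31 and was called (limma adjusted p = 0.015). It was also called with the block on the heading (SE 0.19, limma adjusted p = 0.0073).

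Uhrf1 was called lower in iTreg cells. Its iTreg values were 54.1, 28.3, 62.5, and 71.8 FPKM, all below the lowest of the Th0 values, which was 75.2 FPKM. The difference was -0.95 (SE 0.28, limma adjusted p = 0.049), close to the threshold. The call was lost in 5 of 8 fits that left out a library (M22_1, M22_4, M42_1, M42_4, or M43_1), where adjusted p reached 0.11. It was also lost with a pseudocount of 0.1 (limma adjusted p = 0.057).

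Promoter sequences of Uhrf1 are shown because its library order, like that of Dnmt1, was that of summed S phase and proliferation genes within each group. How many other genes have that order was not counted. Many S phase genes carry binding motifs of E2F, the transcription factor family of the cell cycle. RefSeq promoter windows (GRCm38.p6, the 250 bases before each annotated start) were searched on both strands for 4 heptamers, spellings of the E2F motif that were chosen after the windows had been seen: TTCCCGC (in 3.82% of windows), TTCGCGC (in 1.28%), TTGCCGC (in 1.36%), and TTGGCGC (in 1.97%). Of 32851 windows of all genes, 7.89% held at least 1 heptamer and 0.776% held 2 or more. Both windows of Uhrf1 held 1 heptamer, which is in capitals here: TTCCCGC, 41 bases before the start, and TTCGCGC, 177 bases before the start. The first sequence ends where the exon annotated by GENCODE begins, and the second lies outside annotated exons.
Uhrf1, chr17:56303087-56303320, plus strand: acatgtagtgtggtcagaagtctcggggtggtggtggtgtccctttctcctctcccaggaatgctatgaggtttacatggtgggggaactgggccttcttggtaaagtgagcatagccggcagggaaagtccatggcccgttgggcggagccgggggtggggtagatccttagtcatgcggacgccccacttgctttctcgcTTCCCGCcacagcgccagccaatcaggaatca
Uhrf1, chr17:56304063-56304312, plus strand: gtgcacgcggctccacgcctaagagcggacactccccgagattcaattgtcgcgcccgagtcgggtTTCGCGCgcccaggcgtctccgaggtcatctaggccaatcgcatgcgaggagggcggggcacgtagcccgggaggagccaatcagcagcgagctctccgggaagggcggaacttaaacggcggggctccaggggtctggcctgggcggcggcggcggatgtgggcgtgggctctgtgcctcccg

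Of 3 Dnmt1 windows, 1 (chr9:20952624-20952873, minus strand) held 2 copies of TTCGCGC, 212 and 151 bases before the start. GENCODE marks 66.4% of that window as exon, both copies lie in the exonic bases, and it is not printed. No heptamer was found in the windows of Dnmt3a, Dnmt3b, Tet1, Tet2, and Tet3. A match describes letters in a window, and binding was not measured. The spellings were chosen with these windows seen, and the shares over all windows were not matched for CpG sites. They are therefore no test, and control of these genes by E2F was not tested. As examples of windows without a heptamer, 1 each of Dnmt3a and Dnmt3b is given, with 38 and 21 CpG sites in 250 bases. The other Dnmt3a windows held 40 and 15 CpG sites and the Uhrf1 windows 10 and 30, where the median over all windows was 6.
Dnmt3a, chr12:3806730-3806979, plus strand: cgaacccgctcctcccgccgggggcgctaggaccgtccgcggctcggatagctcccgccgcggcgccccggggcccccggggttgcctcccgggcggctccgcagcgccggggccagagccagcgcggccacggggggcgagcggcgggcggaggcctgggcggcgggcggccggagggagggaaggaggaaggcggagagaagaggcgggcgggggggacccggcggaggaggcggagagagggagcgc
Dnmt3b, chr2:153649199-153649448, plus strand: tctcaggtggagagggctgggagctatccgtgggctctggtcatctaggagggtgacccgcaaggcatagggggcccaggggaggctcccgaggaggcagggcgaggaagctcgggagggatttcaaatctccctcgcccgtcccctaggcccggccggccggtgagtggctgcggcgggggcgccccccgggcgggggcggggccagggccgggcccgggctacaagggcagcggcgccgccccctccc

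Dnmt3a and Dnmt3b are the de novo writers. Dnmt3a was at 23.8, 17.9, 25.5, and 28.9 FPKM in Th0 libraries and at 10.7, 10.5, 9.89, and 11.9 FPKM in Th17 libraries (order M22, M29, M42, M43). All Th17 libraries lay below the Th0 libraries, and 23.8% of tested genes had groups that did not overlap, 10.6% with Th17 lower. The means were 24.0 ± 4.58 and 10.7 ± 0.822 FPKM (SD, n = 4), and the difference was -1.07 (SE 0.15, limma adjusted p = 0.0012, exact permutation p = 0.029). Th17 libraries had 38.8% to 58.6% of the Dnmt3a level of the Th0 library whose heading begins alike.

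Dnmt3a was also lower in iTreg cells, at 13.5, 13.7, 14.2, and 15.8 FPKM, where the Th0 libraries of that table ranged from 17.8 to 28.5. No iTreg library reached a Th0 library. The difference was -0.67 (SE 0.14, limma adjusted p = 0.013), and the iTreg mean was 60.3% of the Th0 mean. Dnmt3a was the member called in every fit that left out a library, 8 of 8 in each comparison, with differences between -1.20 and -0.98 for Th17 and between -0.80 and -0.58 for iTreg cells. The Dnmt3a gene spans chr12:3806007-3914443 (GRCm38, plus strand), and its antisense gene Dnmt3aos covers 0.799% of its exonic bases. Counting did not use the strand. Whether reads on these bases were counted for Dnmt3a or left out depends on the annotation used, which is not stated.

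Dnmt3b was higher in iTreg cells. The iTreg libraries had 5.86, 5.73, 5.20, and 5.32 FPKM and the Th0 libraries with them 3.48, 4.58, 3.90, and 3.89 FPKM, so that the lowest iTreg library exceeded the highest Th0 library. The groups were apart in this direction for 11.7% of tested genes. The difference was 0.40 (SE 0.10, limma adjusted p = 0.024), with means of 3.96 ± 0.457 and 5.53 ± 0.317 FPKM (SD, n = 4). The call was kept in 3 of 8 fits that left out a library, with adjusted p up to 0.074 in the others (without M22_1, M22_4, M29_4, M42_1, or M43_1).

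In Th17 cells no difference of Dnmt3b was detected. The Th17 values of 3.88, 3.91, 4.32, and 4.95 FPKM overlapped the Th0 values of 3.52, 4.62, 3.95, and 3.94 FPKM. The difference was 0.07, with a 95% confidence interval of -0.18 to 0.33 (limma adjusted p = 0.70). A separate test of Th17 against iTreg cells was not made, since their tables were scaled separately.

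The ratio of both de novo writers within a library does not depend on the scaling of that library. It was 6.76, 3.88, 6.46, and 7.33 Dnmt3a per Dnmt3b in Th0 libraries, 2.76, 2.68, 2.29, and 2.39 in Th17 libraries, and 2.30, 2.40, 2.73, and 2.98 in iTreg libraries. All Th17 and iTreg libraries were below the lowest Th0 library, M29_1. How many ratios of other gene pairs separate the groups in this way was not counted. Of single tested genes, 23.8% for Th17 and 22.8% for iTreg cells had groups that did not overlap. The Th17 and iTreg ranges overlapped. Dnmt3b made up 3.004% to 4.83% of the summed FPKM of the 3 DNMT genes in Th0, 4.86% to 7.49% in Th17, and 5.76% to 10.6% in iTreg libraries.

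**Figure D3:**
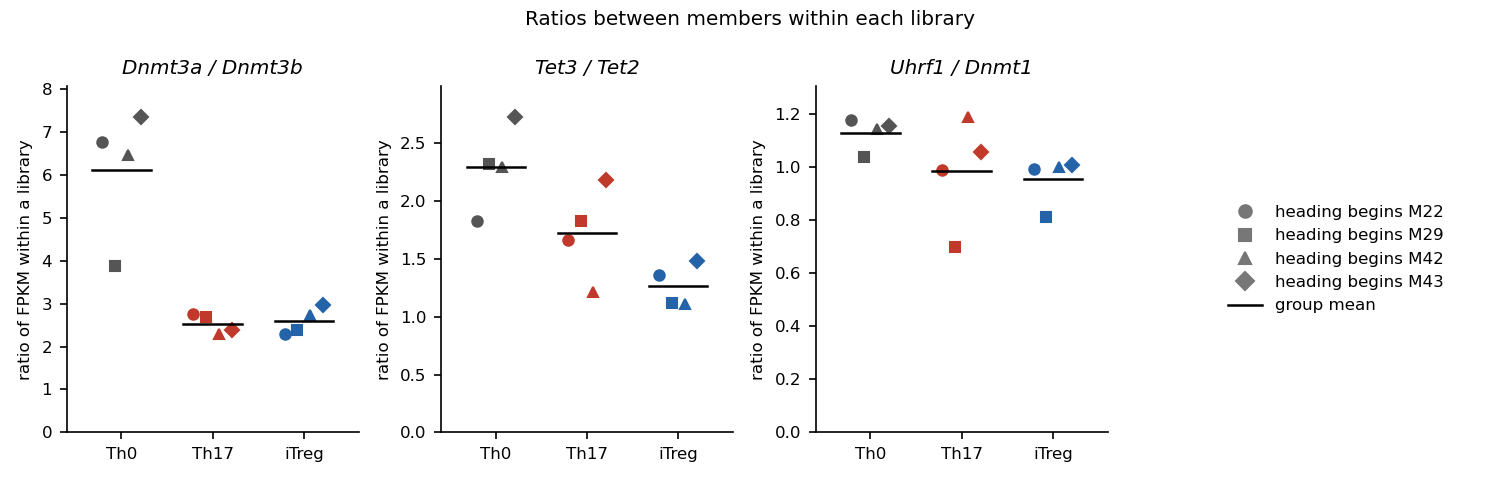
Ratios of FPKM within a library (vertical axes, each from 0) for Dnmt3a over Dnmt3b, Tet3 over Tet2, and Uhrf1 over Dnmt1 in the 4 libraries of each group; marker shapes give the beginning of the column heading and lines the group means. The Dnmt3a over Dnmt3b ratio is 3.88 or more in Th0 libraries and 2.98 or less in all Th17 and iTreg libraries. Ratios of other gene pairs were not counted for comparison.

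Among the erasers, Tet3 and Tet2 made up nearly all TET mRNA. Tet2 was at 8.59, 8.25, 8.07, and 6.93 FPKM in Th0 libraries and at 7.59, 7.97, 8.63, and 7.94 FPKM in Th17 libraries, with overlapping groups. The difference was 0.01, with a 95% confidence interval of -0.21 to 0.24 (limma adjusted p = 0.94), and its sign turned when the medians of the libraries were equalised. In iTreg libraries Tet2 was at 10.3, 13.5, 10.9, and 8.63 FPKM, all above the Th0 libraries of that table, which ranged from 6.85 to 8.49. The difference of 0.40 (SE 0.13) did not pass the threshold (limma adjusted p = 0.077, exact permutation p = 0.029). Without M43_4, the lowest iTreg library, it was 0.50 (limma adjusted p = 0.044), and with the block on the heading it was called (SE 0.086, limma adjusted p = 0.011). The antisense gene Gm42567 covers 0.255% of the exonic bases of Tet2.

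Tet3 was called lower in iTreg cells. It was at 13.98, 15.1, 12.1, and 12.8 FPKM in iTreg libraries, all below the 15.5, 19.0, 18.3, and 18.6 FPKM of the Th0 libraries. The difference was -0.38 (SE 0.11, limma adjusted p = 0.041), and the call was kept in 2 of 8 fits that left out a library, those without M22_1 or M29_4. In Th17 libraries Tet3 was at 12.7, 14.5, 10.5, and 17.3 FPKM, beside 15.7, 19.1, 18.5, and 18.8 FPKM in Th0 libraries of the Th17 table. M43_5 overlapped the Th0 range, and the difference of -0.39 (SE 0.15) did not pass the threshold (limma adjusted p = 0.11, exact permutation p = 0.057). Without M43_5 it was -0.50 (limma adjusted p = 0.049), and with the block on the heading it was called (SE 0.12, limma adjusted p = 0.041).

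Within libraries, Tet3 per Tet2 was 1.83 to 2.72 in Th0, 1.22 to 2.18 in Th17, and 1.11 to 1.48 in iTreg libraries. The iTreg libraries were all below the Th0 libraries, and the Th17 libraries overlapped both. The share of other gene pairs whose ratios separate iTreg from Th0 libraries was not counted. Tet2 made up 26.4% to 35.1% of the summed FPKM of the 3 TET genes in Th0, 31.1% to 44.7% in Th17, and 39.4% to 46.9% in iTreg libraries.

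Tet1 was near the lower end of what these libraries measure. It had 18, 24, 61, and 62 reads in Th0 libraries (0.171 to 0.472 FPKM), 17, 9, 24, and 35 reads in Th17 libraries (0.0663 to 0.276 FPKM), and 22, 20, 28, and 62 reads in iTreg libraries (0.143 to 0.492 FPKM). The 95% Poisson interval, which covers counting error only, was 4.12 to 17.1 reads for the lowest library, M29_5, and 47.5 to 79.5 reads for the highest. Groups overlapped in both tables, and the 2 Th0 libraries M42_1 and M43_1 held more than the other 2. Without the filter on low values its log2(FPKM + 1) difference was -0.18 for Th17 (limma adjusted p = 0.32) and -0.09 for iTreg cells (limma adjusted p = 0.71). This scale understates changes at so low a level, and the Th17 and iTreg means were 51.6% and 76.2% of the Th0 means. Against the Th0 library whose heading begins alike, Th17 libraries had 30.6% to 86.7% and iTreg libraries 47.7% to 105.6%. With voom weights on the whole reads the differences were -1.03 (limma adjusted p = 0.19) and -0.53 (limma adjusted p = 0.53). No difference was called at this depth.

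DNMT1 and UHRF1 act at replication, and their genes were therefore set beside 26 S phase and proliferation genes (licensing, nucleotide supply, cyclins). The summed FPKM of these 26 genes was 1621, 1285, 2031, and 1839 in Th0 libraries, 791, 652, 1779, and 1205 in Th17 libraries, and 1019, 693, 1380, and 1406 in iTreg libraries (order M22, M29, M42, M43). Within each of the 3 groups, the order of the 4 libraries from lowest to highest sum was also their order for Dnmt1 and for Uhrf1. It was not their order for any of the other 5 members, but some came close. Dnmt3a differed only by the order of M42_1 and M43_1 in Th0 libraries, and Tet1 only by that of M42_5 and M43_5 in Th17 libraries. In iTreg libraries both differed only by the order of M22_4 and M29_4. How many of all tested genes had the order of the sum was not counted, and libraries with the same beginning deviated together across genes. M42_5, the Th17 library in which Dnmt1 and Uhrf1 overlapped Th0 cells, had the highest sum of the Th17 libraries. All 26 genes had a negative difference in both comparisons, with medians of -0.78 and -0.70. Among all tested genes, 5149 of 10269 had a negative difference for Th17 and 4938 of 10208 for iTreg cells. Of the 26, 2 were called lower in Th17 cells, where 8.69% of all tested genes were called lower. In iTreg cells 7 of the 26 were called lower, beside 8.21% of all tested genes. In bulk samples, fewer dividing cells and less RNA of these genes per cell cannot be told apart, and the part of cell cycle differences in the levels of Dnmt1 and Uhrf1 was not tested.

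**Figure D4:**
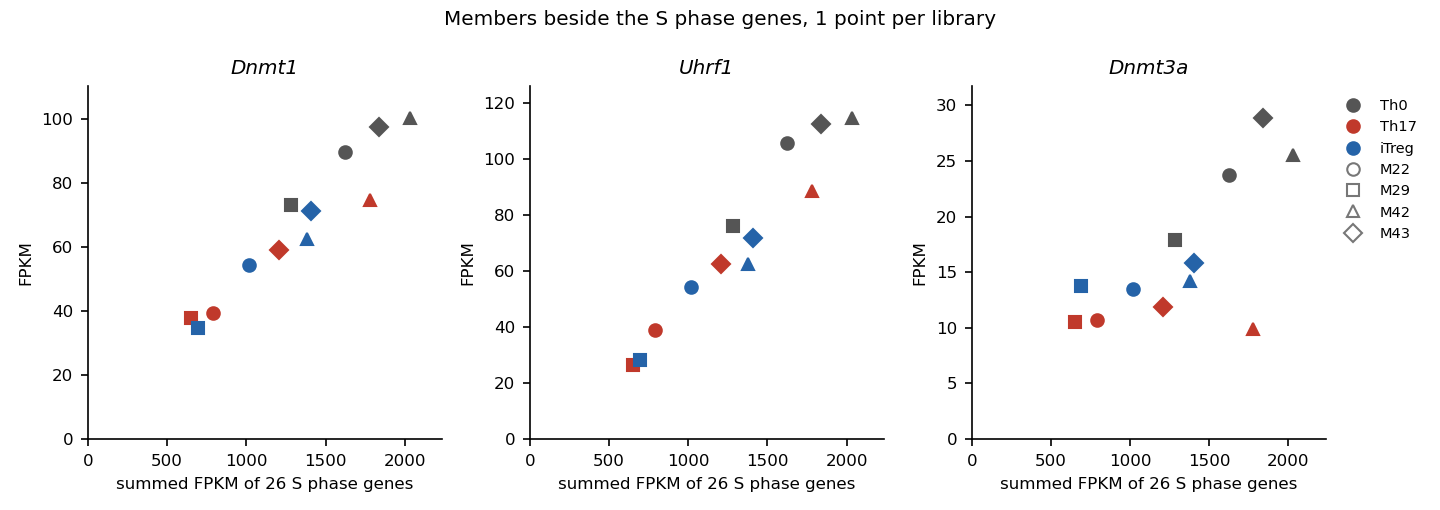
FPKM of Dnmt1, Uhrf1, and Dnmt3a (vertical axes) beside the summed FPKM of 26 S phase and proliferation genes (horizontal axis, labelled S phase genes) in each of the 12 libraries. Colours give the group and shapes the beginning of the column heading, and Th17 and iTreg values come from tables scaled separately. Dnmt1 and Uhrf1 rise with the sum through all 3 groups, while Dnmt3a is between 9.89 and 11.9 FPKM in Th17 libraries whose sums run from 652 to 1779; in Th0 libraries Dnmt3a is lowest (17.9 FPKM) at the lowest sum, and in iTreg libraries highest (15.8 FPKM) at the highest sum.

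Set as a share of that sum, Dnmt1 was 4.94% to 5.69% in Th0, 4.20% to 5.80% in Th17, and 4.53% to 5.35% in iTreg libraries, so that the groups overlapped. Uhrf1 was 5.64% to 6.51% of the sum in Th0, 4.05% to 5.19% in Th17, and 4.08% to 5.31% in iTreg libraries, and on this scale every Th17 and iTreg library was below every Th0 library. Uhrf1 per Dnmt1 was 1.04 to 1.18 in Th0 and 0.813 to 1.01 in iTreg libraries, which did not overlap, and 0.699 to 1.19 in Th17 libraries, which did. The denominator was chosen with these values known, and the shares are given without a test. How many other genes or ratios separate the groups in this way was not counted.

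Among the S phase and proliferation genes, those called with the largest differences in Th17 cells were Tyms, which encodes thymidylate synthase (-1.22, limma adjusted p = 0.035), and Mcm7 of the replicative helicase (-0.72, limma adjusted p = 0.041). Both calls were lost in 6 of 8 fits that left out a library (M22_1, M22_5, M29_5, M42_1, M43_1, or M43_5), with adjusted p up to 0.10 for Tyms and 0.11 for Mcm7. In iTreg cells they were the transcription factor genes E2f1 (-0.85, limma adjusted p = 0.021) and E2f2 (-0.80, limma adjusted p = 0.0073), followed by the helicase gene Mcm3 (-0.72, limma adjusted p = 0.031). The E2f1 call was lost without M22_1 or M42_1 (adjusted p up to 0.058), the Mcm3 call without M22_1, M22_4, M42_1, or M43_1 (up to 0.088), and the E2f2 call in none of the 8 fits.

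The genes whose profile over the 8 libraries of a table was closest to that of a member were listed by the mean absolute difference of the centred log2(FPKM + 1) values. For Dnmt1 these were Mcm5 (0.076), Atad5, and Cdca7 in the Th17 table and Atad5 (0.043), Chaf1a, and Cdc6 in the iTreg table. For Uhrf1 they were Pole (0.056), Chaf1a, and Tcf19 in the Th17 table and Fignl1 (0.073), Cenph, and Kntc1 in the iTreg table. Uhrf1 itself was 127th and 52nd in closeness to Dnmt1. The closest gene to Dnmt3a was Mbp in both tables (0.10 and 0.047), followed by Dab2ip in the Th17 table and by Rnf19a and Atmin in the iTreg table.

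The closest genes to Dnmt3b were Cyld (0.041), Dicer1, and Strn in the Th17 table and Zbtb5 (0.048), Usp3, and Foxj3 in the iTreg table. Those closest to Tet2 were Wsb1 (0.022), Tbc1d23, and Brd7 in the Th17 table and Gnpda1 (0.062), Mettl1, and Sike1 in the iTreg table. For Tet3 they were Elk4 (0.079), Dyrk1a, and Zfp518a in the Th17 table and Bcl2l12 (0.041), 2610002M06Rik, and Marc2 in the iTreg table. Apart from Mbp for Dnmt3a and Atad5 for Dnmt1, the 3 closest genes of a member were not shared by the tables.

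Genes that work with the members were taken from lists of their pathway, and no list was tested as a set. The counts stand beside the shares of all tested genes, which were 10.6% called higher and 8.69% lower for Th17 cells. For iTreg cells these shares were 8.36% and 8.21%. Of 12 partners of maintenance methylation and replication, 3 were called lower in Th17 cells and none higher (median -0.68), and 2 were called lower in iTreg cells (median -0.35). Lig1, the replicative DNA ligase, was lower in Th17 (-1.10, limma adjusted p = 0.017) and in iTreg cells (-0.995, limma adjusted p = 0.013). Pcna, the sliding clamp, was lower in Th17 (-1.06, limma adjusted p = 0.016) and in iTreg cells (-0.68, limma adjusted p = 0.020). Cdca7, the partner of the remodeller HELLS, was lower in Th17 cells (-0.82, limma adjusted p = 0.018). In Th17 cells the calls of Lig1 (adjusted p 0.057) and Pcna (0.0501) were lost without M22_5, and that of Cdca7 without M29_5, M42_1, or M43_1 (up to 0.056). In iTreg cells that of Pcna was lost without M22_1, M22_4, or M43_1 (up to 0.059).

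Of 14 tested partners and chromatin cues of the de novo writers, Kdm2b and Ezh2 alone were called, both lower in each comparison, with list medians of -0.10 for Th17 and -0.22 for iTreg cells. Among all tested genes, 8.69% were called lower for Th17 and 8.21% for iTreg cells. Kdm2b, which brings a Polycomb complex to unmethylated CpG islands, fell from 47.9 ± 7.72 to 20.2 ± 3.39 FPKM (SD, n = 4) in Th17 cells (-1.20, limma adjusted p = 0.0010) and was also lower in iTreg cells (-0.96, limma adjusted p = 0.0017). Ezh2, the Polycomb histone methyltransferase, was lower in Th17 (-0.77, limma adjusted p = 0.011) and in iTreg cells (-0.70, limma adjusted p = 0.026), where the call was lost without M22_1, M42_1, M42_4, or M43_1 (adjusted p up to 0.073). Dnmt3l, the catalytically inactive partner of the de novo writers, was not among the listed genes. Of 7 readers of methylated DNA, Zbtb38 alone was called, lower in Th17 (-1.04, limma adjusted p = 0.00032) and in iTreg cells (-0.61, limma adjusted p = 0.0027), while the list medians were -0.069 and -0.027.

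Among all tested genes, 10.6% were called higher for Th17 cells. The next list was built around the repair of oxidized bases and TET partners, and it also held a dNTP hydrolase gene. Its medians were 0.066 for Th17 and -0.073 for iTreg cells. Of its 16 tested genes, 3 were called higher in Th17 cells and none was called in iTreg cells. They were Gadd45a, a stress-induced repair adaptor (0.97, limma adjusted p = 0.032), Samhd1, a dNTP hydrolase (0.75, limma adjusted p = 0.034), and Neil1, a DNA glycosylase (0.62, limma adjusted p = 0.035). Each of these calls was lost in 6 of 8 fits that left out a library, with adjusted p up to 0.091, 0.096, and 0.090. These were the fits without M22_5, M29_5, M42_1, or M43_1 for all 3 genes, without M22_1 for Gadd45a and Samhd1, without M43_5 for Samhd1 and Neil1, without M42_5 for Gadd45a, and without M29_1 for Neil1. Whether these genes differ between Th17 and iTreg cells was not tested. Tdg, the glycosylase that removes the late oxidation products of TET enzymes, was not among the listed genes.

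TET enzymes need 2-oxoglutarate and are inhibited by fumarate and succinate. Of 15 tested enzymes of these metabolites, Idh1, which makes 2-oxoglutarate, was higher in Th17 cells (1.18 ± 0.365 and 3.15 ± 0.459 FPKM, SD, n = 4, limma adjusted p = 0.0019), and Fh1, which removes fumarate, was lower (-0.78, limma adjusted p = 0.0096). None of the 15 was called in iTreg cells, where Idh1 had a difference of 0.39 (limma adjusted p = 0.12), and the list medians were -0.048 and 0.028. These calls stand beside 10.6% of all tested genes called higher and 8.69% called lower for Th17 cells.

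DNMT enzymes take their methyl group from S-adenosylmethionine. The list around its supply held 14 tested genes, not all of them for enzymes. Of these, Shmt2, a mitochondrial enzyme of the folate cycle, was higher in Th17 (0.58, limma adjusted p = 0.0090) and in iTreg cells (0.60, limma adjusted p = 0.011). In iTreg cells the folate carrier gene Slc19a1 was also higher (0.98, limma adjusted p = 0.024) and Ahcyl1 lower (-0.36, limma adjusted p = 0.031). The Slc19a1 call was lost without M22_4 or M43_4 (adjusted p up to 0.074), and the Ahcyl1 call in 6 of 8 fits, those without M22_1, M22_4, M29_4, M42_1, M42_4, or M43_1 (up to 0.091). The list medians were -0.14 for Th17 and 0.093 for iTreg cells. Among all tested genes, 19.3% were called for Th17 and 16.6% for iTreg cells.

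**Figure D5:**
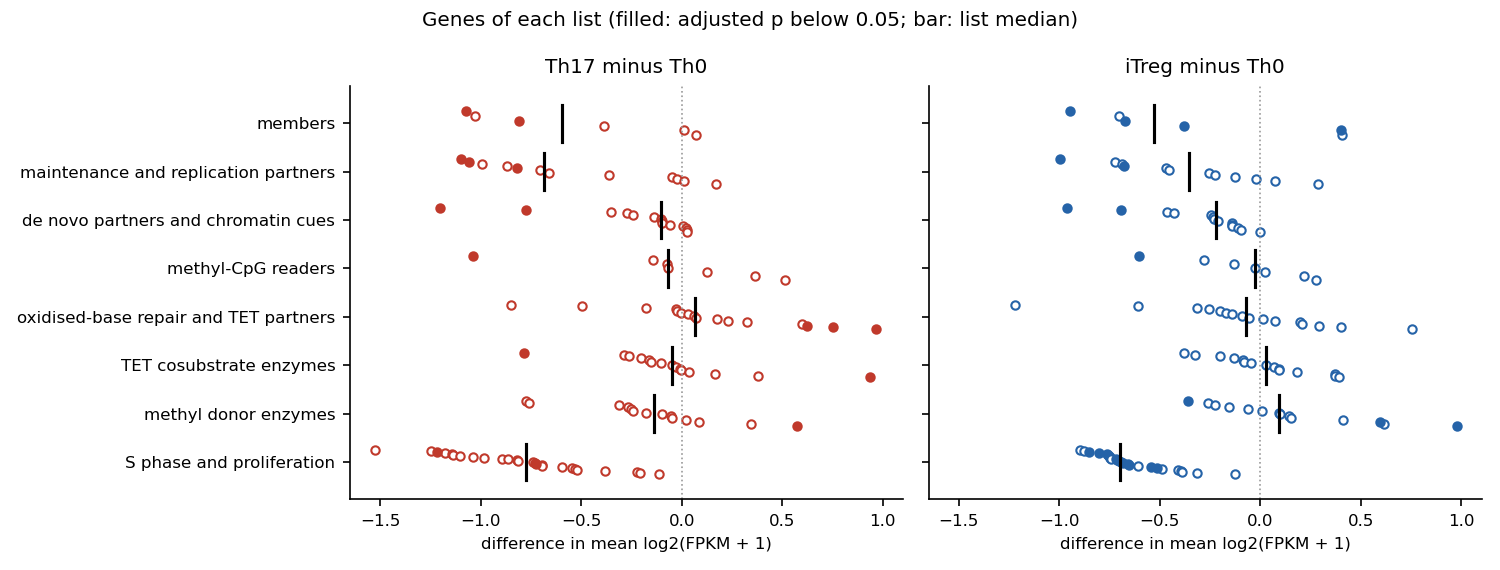
Difference from Th0 in mean log2(FPKM + 1) (horizontal axis) of each tested gene of the members and of the 7 pathway lists, for Th17 (left) and iTreg cells (right); filled points have an adjusted p below 0.05 and bars are list medians. All 26 S phase and proliferation genes lie below 0 in both panels, and the pathway lists other than these and the maintenance partners have medians between -0.22 and 0.093.

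The last list held lineage genes with control regions known to be methylated or demethylated in T cells. Of 13 tested in the Th17 table, 7 were higher and 4 lower, led by Il17f (8.64, limma adjusted p = 8.4e-07), Il17a (4.50, limma adjusted p = 0.00044), and Il10 (3.90, limma adjusted p = 0.00043). Of 12 tested in the iTreg table, 5 were higher and 1 lower, led by Il17f (5.53), Foxp3 (3.81), and Il2 (-3.47). These genes include those used to check the labels, and their methylation was not measured. Among all tested genes, 19.3% were called for Th17 and 16.6% for iTreg cells.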

How the data were processed

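Of the 12 libraries, 4 per group, the authors sequenced paired-end reads of 100 nt, mapped them with TopHat2 2.0.14 to mm10, counted them on exons with HTSeq without strand, and kept genes above a minimum count in 4 samples. The annotation used for counting is not stated. The authors deposited 2 tables of FPKM values, scaled separately. The authors also deposited the log2 fold changes, log2 average abundance, likelihood-ratio score, p-value, and FDR of their edgeR comparisons, and none of these was used. Headings ending in 1 recur in both tables and were taken as Th0, the group both share, and the other ending in each table as its polarized group.

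Each table was tested alone with limma 3.58.1 (R 4.3.3) on log2(FPKM + 1), over genes above 1 FPKM in 4 or more of the 8 libraries, without blocks, with Benjamini-Hochberg adjustment at 0.05. Differences on this scale understate the change of low genes. Exact permutation tests used all 70 arrangements in scipy 1.17.1, two-sided. The script was tested on simulated data. Whole reads (tolerance 0.001) were recovered for 100% of listed genes and gave the depth. Fits with voom weights on these reads and fits with the beginning of the heading as a block were added after seeing the data. p-values measure the spread between cultures.

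Members and gene lists were chosen with earlier results of these data known. Named genes were the 7 members, genes that check the labels, at most 3 called genes per list with the largest differences, and the 3 closest genes of each tested member, and some genes that this rule names are not reported here. Dnmt3l, Tdg, Cxxc4, Bhmt, Gnmt, and Il4 were not among the listed genes. Promoter windows are from RefSeq (GRCm38.p6), and gene spans from GENCODE. For 10 of 12 member windows, the bases after the start were found near the beginning of a GENCODE transcript of that gene.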

Additional observations from a re-analysis of the deposited data

Results flagged for a closer look

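Of 107 groups of 4 libraries that were checked, 8 had a library farther from the other 3 than Dixon's 95% critical value allows, where chance gives about 1 in 20 groups. Dnmt3b was 4.83% of the DNMT sum in Th0 library M29_1 and 3.004% to 3.04% in the other Th0 libraries. The DNMT sum over the TET sum was 3.47 in M29_1 and 4.79 to 4.96 in the others. Uhrf1 per Dnmt1 was 0.813 in iTreg library M29_4 and 0.993 to 1.01 in the others. Foxp3 was 42.5 FPKM in Th17 library M43_5 and 0.499 to 4.50 in the others. E2f2 was 8.12 FPKM in M29_4 and 11.2 to 11.7 in the other iTreg libraries. In Th0 library M29_1, Idh1 was 1.72 FPKM, against 0.931 to 1.06 in the other Th0 libraries, and Il10 was 3.71 FPKM, against 0.164 to 0.613. Il17a was 0.114 FPKM in Th0 library M22_1 and listed at 0 in the others.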

How the results depend on the processing

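The study tested its RNA-seq counts with a pair-wise design. The headings carry no experiment number, so the experiment block of the study could not be set, and groups were compared unpaired. Libraries whose headings begin alike deviated together from their group means, which the unpaired tests count as spread. Their correlations across genes with Th0 libraries were 0.450 to 0.784 for Th17 and 0.662 to 0.769 for iTreg libraries. For headings that begin differently they were -0.590 to 0.434 and -0.576 to 0.248. Deviations are taken from group means, so these ranges depend on each other. A replicate block on these beginnings, added after seeing the data, called 3882 genes for Th17 and 4170 for iTreg cells, with 4 and 6 members, and lost no call of a named gene. At an FDR of 0.01, 995 genes were called for Th17 and 778 for iTreg cells, with 1 member (Dnmt3a) and 0 members, where limma at 0.05 had called 1983 and 1691 genes. Of the 6 tested members, 4 in Th17 and 6 in iTreg cells had an unadjusted limma p below 0.05. At an FDR of 0.01, voom weights called 1 and 0 members and the block 3 and 4. The shares of all tested genes at these cutoffs were not counted for the unadjusted p, voom weights, or the block. These counts are therefore not a result about the members. Leaving out a library gave 1218 (without M22_5) to 2083 genes (without M42_5) and 1 to 3 members for Th17, and 994 (without M22_4) to 1477 genes (without M29_1) and 1 to 5 members for iTreg cells. Without M43_1, 1313 genes were called for Th17. The lowest member count came without M22_1, M22_5, M29_5, M42_1, or M43_1 for Th17 and without M22_4, M42_1, or M43_1 for iTreg cells, where it was 2 without M22_1 or M42_4. Dnmt3a was called in all 8 of these fits in both comparisons. The other settings (pseudocount, filter, equal medians, trend, voom weights) kept every member on its side of the threshold, except that Uhrf1 in iTreg cells was lost with a pseudocount of 0.1. The difference of Tet2 in Th17 cells was -0.020 with equal medians and ranged from -0.043 (without M43_1) to 0.048 (without M22_1). That of Foxp3 ranged from -1.23 (without M43_5) to 0.39 (without M22_5). The cause was not tested. Depth limits Tet1 most.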
